A study of Homo sapiens with 12 samples.

Results

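The genes described here carry out excision, mismatch and crosslink DNA repair. They are a set of 36 genes named from known pathways and chosen by name, with earlier results of these data known. A gene was measured where a probe set on the array is annotated to it alone, and where several were, the one with the highest signal averaged across the 12 arrays was used. This gave 34 of the 36 genes, among 11963 genes measured in all: 12 of nucleotide excision repair, 12 of base excision repair, 4 of mismatch repair, 5 of the Fanconi anaemia core complex, and MGMT. The probe sets of PMS2 also carry the symbol of a related gene and were left out, and FANCA was not analysed here.

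Transcripts were measured on Affymetrix expression arrays of 2 human acute myeloid leukaemia cell lines. The 4 groups, of 3 arrays each, were U937 with an shRNA against CHD4, U937 with a scrambled shRNA, MV4-11 with an shRNA against CHD4, and MV4-11 with a scrambled shRNA. MV4-11, a myelomonocytic line, has a rearranged MLL gene and mutant, constitutively active FLT3, while U937 is monocytic. Cells of every group, controls included, carried a lentiviral vector (pRRL.H1) that also expresses GFP. The series description calls the replicates biological, and the labels do not say which hairpin each sample carried, when RNA was taken, or whether cells were sorted or cloned. CHD4 is the ATPase of the NuRD chromatin remodelling complex, and the study's title concerns the sensitivity of CHD4-depleted leukaemia cells to DNA-damaging agents.

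The target is written CDH4 in the sample labels but CHD4 in the description of the study, so CHD4 was examined first. On the log2 scale, CHD4 was at 8.23, 8.13 and 8.45 in U937 CHD4 shRNA arrays, against 10.31, 10.38 and 10.71 in U937 scrambled arrays. In MV4-11 it was at 8.79, 8.85 and 8.39 in CHD4 shRNA arrays, against 10.65, 10.69 and 10.68 in scrambled arrays. The CHD4 shRNA arrays thus held 21.8% of the scrambled signal in U937 and 25.1% in MV4-11. FLT3 averaged 9.99 in MV4-11 scrambled arrays and 6.64 in U937 scrambled arrays. MEIS1, listed with FLT3 as a marker of MLL-rearranged leukaemia, was high in both lines, at 11.43 and 10.85. With CHD4 shRNA, MEIS1 rose by 0.69 in U937 (limma adjusted p = 0.014), and its change in MV4-11 was 0.22 (limma adjusted p = 0.378). The group means of the monocyte gene LYZ lay between 13.24 and 13.73, that of the granulocyte precursor gene MPO between 5.20 and 5.78, and that of the monocyte gene CD14 between 5.05 and 5.31. Of 8 measured myeloid marker genes, 1 rose with CHD4 shRNA in U937 and 2 rose in MV4-11, and 0 fell. FCER1G, a signalling chain of Fc receptors, averaged 11.28 in U937 CHD4 shRNA arrays and 10.02 in U937 scrambled arrays (limma adjusted p = 0.00353), and 11.47 and 10.06 in those of MV4-11 (limma adjusted p = 0.00169). ITGAM, an integrin chain of maturing myeloid cells, averaged 7.50 in MV4-11 CHD4 shRNA arrays and 6.09 in MV4-11 scrambled arrays (limma adjusted p = 0.00205), and its change in U937 was 0.66 (limma adjusted p = 0.0843). The log2 of the summed signal of the 8 markers ran from 14.23 to 14.29 in U937 CHD4 shRNA arrays, against 13.72 to 14.34 in U937 scrambled arrays. In MV4-11 it ran from 14.01 to 14.47 in CHD4 shRNA arrays, against 13.73 to 13.79 in scrambled arrays. Of 13 measured markers of T, B, erythroid, epithelial and fibroblast cells, 0 changed in either line, and their summed signal on the log2 scale lay between 9.66 and 10.0 on all arrays. The part of these marker changes in the results on repair genes was not tested. In a principal component analysis of all genes, U937 CHD4 shRNA replicate 3 lay farthest from the scrambled arrays of its line, and MV4-11 CHD4 shRNA replicate 3 lay nearest to those of its own.

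Nucleotide excision repair removes bulky lesions such as those made by ultraviolet light: XPC or the DDB1 and DDB2 complex finds the damage, the TFIIH helicases open the DNA, XPA checks the lesion, and ERCC1 with ERCC4 and ERCC5 cut the strand. Base excision repair begins with a glycosylase that removes a damaged base, after which APEX1 cuts the backbone, POLB fills the gap and LIG3 with XRCC1 seals it. Mismatch repair corrects replication errors, and the Fanconi anaemia core complex attaches ubiquitin to its substrates at interstrand crosslinks. MGMT removes alkyl groups from guanine directly. These pathways act on much of the damage that chemotherapy of leukaemia causes.

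XPA, LIG3 and FANCF were lower past the threshold in both lines, so their promoters are shown. Each sequence is the 250 bases before the RefSeq transcription start in GRCh38.p14, 5′ to 3′ on the gene's strand. Capitals mark the GC box (GGGCGG), the CCAAT box (CCAAT) and the E-box (CACGTG), each on either strand.
XPA, chr9:97697341-97697590, minus strand: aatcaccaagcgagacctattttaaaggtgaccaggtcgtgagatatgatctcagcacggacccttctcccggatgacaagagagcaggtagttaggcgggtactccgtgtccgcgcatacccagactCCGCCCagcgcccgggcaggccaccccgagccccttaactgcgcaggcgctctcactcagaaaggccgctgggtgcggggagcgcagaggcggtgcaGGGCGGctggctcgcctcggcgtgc
LIG3, chr17:34980262-34980511, plus strand: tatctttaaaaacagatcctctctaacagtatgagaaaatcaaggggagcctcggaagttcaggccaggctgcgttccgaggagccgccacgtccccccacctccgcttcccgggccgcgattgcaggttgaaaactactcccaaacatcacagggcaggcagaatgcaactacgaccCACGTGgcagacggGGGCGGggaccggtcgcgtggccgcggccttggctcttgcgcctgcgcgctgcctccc
FANCF, chr11:22625824-22626073, minus strand: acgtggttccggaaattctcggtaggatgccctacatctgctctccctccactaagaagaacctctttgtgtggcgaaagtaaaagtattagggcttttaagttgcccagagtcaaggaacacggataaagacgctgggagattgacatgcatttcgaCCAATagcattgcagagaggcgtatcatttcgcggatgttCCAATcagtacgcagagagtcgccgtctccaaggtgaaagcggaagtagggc
The XPA promoter held 2 GC boxes, that of LIG3 a GC box and an E-box, and that of FANCF 2 CCAAT boxes. A GC box was present in 21 of the 32 genes of the set with a promoter in the RefSeq table (65.6%), against 60.6% of the promoters of all genes measured. A CCAAT box was present in 13 of the 32 (40.6%), against 35.6% of those promoters. TATAAA was found in 0 of the 32, against 7.9%. These matches describe the letters in this window alone.

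Most of the repair genes did not pass the test with CHD4 shRNA, and more of those that did fell than rose. All changes below are log2 differences, CHD4 shRNA minus scrambled, from 1 limma fit to all 12 arrays, and the threshold is a Benjamini-Hochberg adjusted p under 0.05 over 11963 genes. In U937, 3 of the 34 genes passed (8.8%), against 6.36% of all genes. All 3 fell and 0 rose, where 3.69% of all genes fell and 2.67% rose. With the replicate number as a block in MV4-11, where same-numbered arrays deviated together, 6 passed in U937, all downward, while 1168 of all genes passed. In MV4-11, 7 passed (20.6%), against 9.42% of all genes. Of these 6 fell and 1 rose, where 4.69% of all genes fell and 4.73% rose. In the average of both lines, which uses the same arrays, 9 passed (26.5%), against 18.8% of all genes: XPA, ERCC1, LIG3, PARP2, PMS1 and FANCF fell, and ERCC3, FANCE and MBD4 rose. Of all genes, 10% fell and 8.72% rose in the average. Without U937 CHD4 shRNA replicate 3, 2 passed in U937 and 9 in the average. The calls over all genes shifted too, to 161 up and 202 down in U937, against 320 and 441 with all arrays. In the average they were 839 up and 969 down, against 1043 and 1201. Without MV4-11 CHD4 shRNA replicate 3, 7 passed in MV4-11 and 10 in the average. The 7 calls in MV4-11 come from the fit that pools the spread of all groups. In a fit of the MV4-11 arrays alone 0 passed, where 268 of the 11963 genes rose and 245 fell. At an unadjusted p under 0.05 were 9 of the set and 2539 of all genes. Without CHD4 shRNA replicate 1 in the fit of all arrays 0 passed as well, with 8 at an unadjusted p under 0.05. The calls over all genes without MV4-11 CHD4 shRNA replicate 1 or 3 are not given here. A shift of the repair genes in those fits thus cannot be told from a shift of all genes. The median change of the 34 genes was -0.07 in U937 and -0.08 in MV4-11, beside -0.003 and -0.03 over all genes. These arrays measure pools of cells, in which fewer cells of a kind and less RNA per cell cannot be told apart.

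The change lay below 0 in both lines for 17 of the 34 genes, against 36.2% of all genes, and above 0 in both for 9, against 30.1% of all genes, while 8 had opposite signs or a change of 0. These signs carry no test. XPA, LIG3 and FANCF were the 3 genes of the set past the threshold downward in both lines (2.28% of all genes were), and 0 genes of the set were past it upward in both (1.71% of all genes). With the block in MV4-11, 5 genes of the set were past the threshold downward in both lines, ERCC1 and PMS1 besides these 3 (3.52% of all genes), and 0 upward (2.78%). The 3 CHD4 shRNA arrays did not overlap the 3 scrambled arrays for 18 of the 34 genes in U937 (52.9%), against 26.8% of all genes. Of these, 11 were lower (14.6% of all genes) and 7 higher (12.2%). In MV4-11 this held for 12 (35.3%), against 25.6% of all genes, with 9 lower (14.1%) and 3 higher (11.5%). All 6 CHD4 shRNA arrays lay on 1 side of all 6 scrambled arrays for XPA, ERCC1, LIG3, PARP2 and FANCF (lower) and for ERCC3 (higher), which is 6 of 34 genes, against 6.88% of all genes (3.92% lower and 2.96% higher).

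**Figure D1:**
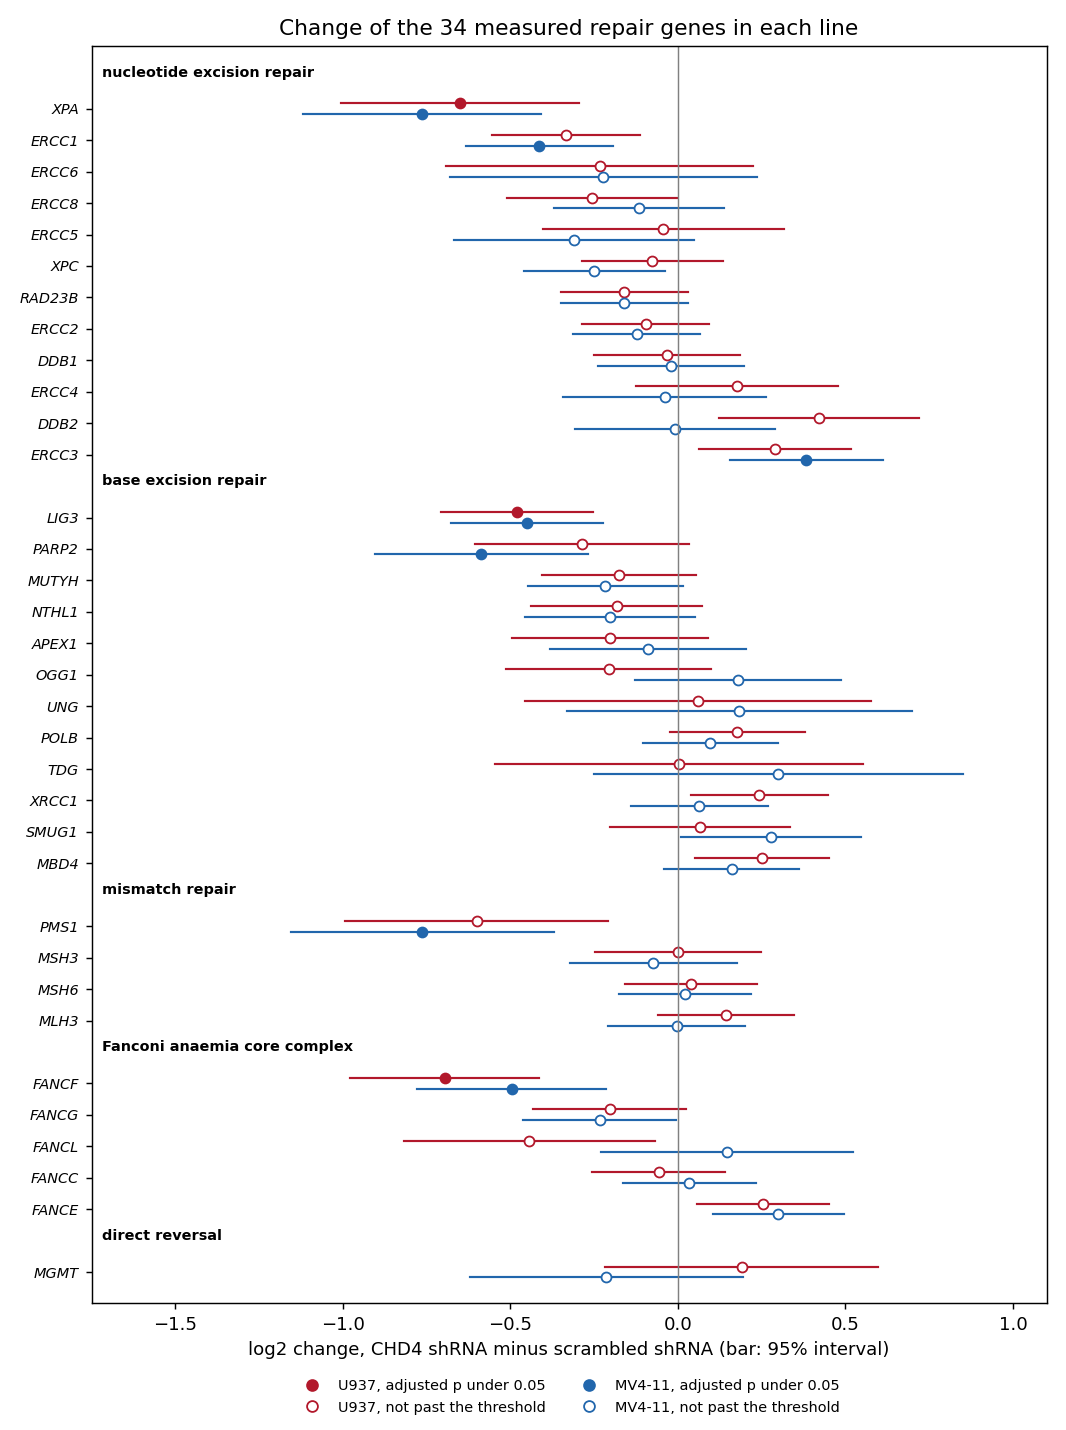
Change of each of the 34 repair genes with CHD4 shRNA, as log2 CHD4 shRNA minus scrambled on the x axis with 95% intervals from limma, for U937 and MV4-11, genes grouped by pathway down the y axis. Filled points passed the threshold in that line: 3 in U937 and 7 in MV4-11, of which only ERCC3 in MV4-11 lay above 0.

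Of the 12 nucleotide excision repair genes, 1 fell in U937, while 2 fell and 1 rose in MV4-11. XPA, the scaffold that checks the lesion before the cut, was at 8.02, 7.82 and 7.60 in U937 CHD4 shRNA arrays, against 8.49, 8.42 and 8.48 in U937 scrambled arrays. In MV4-11, XPA was at 7.57, 7.18 and 7.96 in CHD4 shRNA arrays, against 8.33, 8.24 and 8.43 in scrambled arrays. In neither line did the groups overlap, and the spread was wider among CHD4 shRNA arrays than among scrambled arrays. XPA fell by 0.65 ± 0.16 (SE) in U937 (limma adjusted p = 0.0357) and by 0.76 ± 0.16 in MV4-11 (limma adjusted p = 0.013), to 63.7% and 58.9% of the scrambled level. Of the 12 fits that left out 1 array, the U937 call was lost in 6 (any U937 scrambled array, U937 CHD4 shRNA replicate 2 or 3, or MV4-11 CHD4 shRNA replicate 1, with an adjusted p up to 0.136). The MV4-11 call was lost in 2 (CHD4 shRNA replicate 1 or scrambled replicate 3, up to 0.0536). The average over both lines fell by 0.71 ± 0.12 (limma adjusted p = 0.00118) and passed in all 12.

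ERCC1, the partner of the ERCC4 nuclease that cuts 5′ of the lesion, was at 9.58, 9.59 and 9.54 in U937 CHD4 shRNA arrays, against 9.97, 9.90 and 9.84 in U937 scrambled arrays. In MV4-11, ERCC1 was at 9.58, 9.67 and 9.56 in CHD4 shRNA arrays, against 9.91, 10.25 and 9.89 in scrambled arrays. The groups were apart in both lines, and the highest scrambled array was MV4-11 replicate 2. ERCC1 fell in MV4-11, by 0.41 ± 0.10 (limma adjusted p = 0.0243), while its change in U937 was -0.33 ± 0.10 (limma adjusted p = 0.0753, and 0.0305 with the block in MV4-11). Its other probe set gave -0.47 in MV4-11 and -0.35 in U937. The MV4-11 call was lost without CHD4 shRNA replicate 1 and without scrambled replicate 2, with an adjusted p up to 0.0925. ERCC4 itself had changes of 0.18 in U937 and -0.04 in MV4-11, neither past the threshold. Its probe set was dim, with a mean of 5.14 over the 12 arrays (percentile 18.1 of all genes), so a change of ERCC4 could be missed.

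ERCC3, the XPB helicase of TFIIH, was higher with CHD4 shRNA. It was at 8.68, 8.63 and 8.96 in U937 CHD4 shRNA arrays, against 8.40, 8.44 and 8.56 in U937 scrambled arrays. In MV4-11, ERCC3 was at 8.79, 8.88 and 8.70 in CHD4 shRNA arrays, against 8.41, 8.50 and 8.31 in scrambled arrays. The groups were again apart in both lines, here with the CHD4 shRNA arrays on top. It rose by 0.38 ± 0.10 in MV4-11 (limma adjusted p = 0.0381) and by 0.34 ± 0.07 in the average (limma adjusted p = 0.00706), and its change in U937 was 0.29 ± 0.10 (limma adjusted p = 0.138). Leaving out 1 array removed the MV4-11 call in 7 of 12 fits, with an adjusted p up to 0.128, and the average call in 0. The arrays concerned were all 3 MV4-11 scrambled arrays, MV4-11 CHD4 shRNA replicates 1 and 2, and U937 scrambled replicates 1 and 2. ERCC2, the other TFIIH helicase of the set, had changes of -0.10 in U937 and -0.12 in MV4-11.

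DDB2, which recognises ultraviolet lesions, differed most between the lines within this pathway. It was at 9.12, 9.19 and 9.23 in U937 CHD4 shRNA arrays, against 8.58, 8.71 and 8.99 in U937 scrambled arrays. In MV4-11, DDB2 was at 9.27, 9.52 and 9.54 in CHD4 shRNA arrays, against 9.38, 9.73 and 9.25 in scrambled arrays. The U937 groups were apart and the MV4-11 groups overlapped, but neither the U937 change of 0.42 ± 0.14 (limma adjusted p = 0.0999) nor the MV4-11 change of -0.01 ± 0.14 passed. DDB1, its partner, had changes of -0.03 and -0.02. The damage sensor XPC had -0.08 in U937 and -0.25 in MV4-11, and its partner RAD23B -0.16 in both. Another bright probe set of RAD23B gave -0.15 in U937 and 0.01 in MV4-11, and a dim one gave 0.03 and 0.24. The nuclease ERCC5 had -0.04 and -0.31, and the transcription-coupled repair factors ERCC6 and ERCC8 had -0.23 and -0.26 in U937 and -0.22 and -0.12 in MV4-11, none past the threshold.

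Of the 12 base excision repair genes, 1 fell in U937 and 2 fell in MV4-11, namely LIG3 in both lines and PARP2 in MV4-11, which act after the backbone is cut. LIG3, the ligase that seals the nick together with XRCC1, was at 7.10, 7.30 and 7.36 in U937 CHD4 shRNA arrays, against 7.77, 7.62 and 7.81 in U937 scrambled arrays. In MV4-11, LIG3 was at 7.49, 7.44 and 7.54 in CHD4 shRNA arrays, against 7.80, 8.11 and 7.91 in scrambled arrays. Every CHD4 shRNA array was below every scrambled array. LIG3 fell by 0.48 ± 0.10 in U937 (limma adjusted p = 0.0174) and by 0.45 ± 0.10 in MV4-11 (limma adjusted p = 0.0191). A second probe set gave -0.46 in U937 and -0.26 in MV4-11, the MV4-11 value not past the threshold. The U937 call was lost without CHD4 shRNA replicate 1 or 2 or scrambled replicate 1 or 3, and the MV4-11 call without CHD4 shRNA replicate 1 or 2 or scrambled replicate 2, with an adjusted p up to 0.074 and 0.0744. The average call was lost in none of the 12 fits.

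PARP2, which marks DNA breaks with poly(ADP-ribose), was at 9.46, 9.37 and 9.20 in U937 CHD4 shRNA arrays, against 9.63, 9.60 and 9.66 in U937 scrambled arrays. In MV4-11, PARP2 was at 8.99, 8.86 and 9.51 in CHD4 shRNA arrays, against 9.58, 9.68 and 9.86 in scrambled arrays. In neither line did the groups overlap, and MV4-11 CHD4 shRNA replicate 3 lay nearest to the scrambled arrays, while its CHD4 value was the lowest of its group. PARP2 fell by 0.59 ± 0.15 in MV4-11 (limma adjusted p = 0.0265), and its change in U937 was -0.29 ± 0.15 (limma adjusted p = 0.326). The chosen probe set is of a kind whose probes may match other transcripts. Of the other 2 probe sets of PARP2, that of the same kind gave -0.58 in MV4-11 and that of another kind -0.62. Each gave -0.30 in U937. The MV4-11 call was lost without CHD4 shRNA replicate 1 or 2 or scrambled replicate 2 or 3, with an adjusted p up to 0.115.

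MBD4, a glycosylase for thymine and uracil mispaired with guanine at CpG sites, was at 10.69, 10.66 and 10.73 in U937 CHD4 shRNA arrays, against 10.48, 10.47 and 10.38 in U937 scrambled arrays. In MV4-11, MBD4 was at 10.68, 10.70 and 10.60 in CHD4 shRNA arrays, against 10.44, 10.38 and 10.68 in scrambled arrays. The U937 groups were apart and the MV4-11 groups overlapped. Its change passed in the average alone, at 0.205 (limma adjusted p = 0.045). This call was lost in 10 of the 12 fits without 1 array, all but those without MV4-11 replicate 3 of either group, with an adjusted p up to 0.109. When all probe sets were tested separately, the chosen one did not pass in the average (limma adjusted p = 0.0516). The others of MBD4 gave 0.26, 0.25 and 0.22 there (limma adjusted p = 0.0377, 0.0365 and 0.176). The other glycosylases did not pass in either line. OGG1 and MUTYH, which act on oxidised guanine and the adenine opposite it, had changes of -0.21 and -0.18 in U937 and 0.18 and -0.22 in MV4-11. The probe sets of OGG1 disagreed in sign: those not chosen gave 0.13 and 0.18 in U937 and 0.26 and -0.19 in MV4-11. NTHL1, for oxidised pyrimidines, had -0.18 and -0.20. The uracil and thymine glycosylases UNG, SMUG1 and TDG had 0.06, 0.07 and 0.00 in U937 and 0.18, 0.28 and 0.30 in MV4-11. Downstream of them, APEX1 had -0.20 in U937 and -0.09 in MV4-11, POLB 0.18 and 0.10, and XRCC1 0.24 and 0.06. In MV4-11 the arrays for TDG and UNG spread over more than the change between groups, with a standard error of 0.25 and 0.24.

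Of the 4 mismatch repair genes, PMS1 fell in MV4-11 and 0 passed in U937. PMS1, a MutL homologue whose role in human mismatch repair is minor, was at 10.34, 10.10 and 9.78 in U937 CHD4 shRNA arrays, against 10.70, 10.59 and 10.73 in U937 scrambled arrays. In MV4-11, PMS1 was at 9.64, 9.10 and 9.76 in CHD4 shRNA arrays, against 10.45, 10.00 and 10.34 in scrambled arrays. Within each line the groups were apart. PMS1 fell by 0.76 ± 0.18 in MV4-11 (limma adjusted p = 0.0207) and by 0.68 ± 0.13 in the average (limma adjusted p = 0.00284), with a U937 change of -0.60 ± 0.18 (limma adjusted p = 0.0728, and 0.0158 with the block in MV4-11). The MV4-11 call was lost without CHD4 shRNA replicate 1 or 2 or scrambled replicate 1 or 3, with an adjusted p up to 0.0741. The mismatch sensors MSH3 and MSH6 had changes of 0.00 and 0.04 in U937 and -0.07 and 0.02 in MV4-11. A second probe set of MSH3 gave 0.15 in U937 and 0.17 in MV4-11, neither past the threshold. The 95% interval for MSH6 ran from -0.16 to 0.24 in U937 and from -0.18 to 0.22 in MV4-11. MLH3, a MutL homologue with a main role in meiosis, had 0.14 in U937 and 0.00 in MV4-11. Its probe sets disagreed in U937: another gave 0.67 in U937 (limma adjusted p = 0.0598) and -0.09 in MV4-11, and the third 0.11 and -0.05. The chosen set and the third are of the kind whose probes may match other transcripts, and the set with 0.67 is of another kind.

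FANCF and FANCE, both subunits of the Fanconi core complex, had changes of opposite sign. FANCF, an adaptor of the complex, was at 6.98, 6.86 and 6.61 in U937 CHD4 shRNA arrays, against 7.36, 7.51 and 7.67 in U937 scrambled arrays. In MV4-11, FANCF was at 7.08, 7.35 and 7.0 in CHD4 shRNA arrays, against 7.77, 7.66 and 7.49 in scrambled arrays. Every CHD4 shRNA array was below every scrambled array, by as little as 0.01 between MV4-11 CHD4 shRNA replicate 2 and U937 scrambled replicate 1. FANCF fell by 0.70 ± 0.13 in U937 (limma adjusted p = 0.00828), by 0.50 ± 0.13 in MV4-11 (limma adjusted p = 0.0324) and by 0.60 ± 0.09 in the average (limma adjusted p = 0.000797). The U937 call held in all 12 fits without 1 array, and the MV4-11 call was lost without CHD4 shRNA replicate 1 or 3 or scrambled replicate 1 or 2, with an adjusted p up to 0.121.

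FANCE, which links the core complex to its substrate FANCD2, was at 9.88, 9.96 and 9.82 in U937 CHD4 shRNA arrays, against 9.62, 9.68 and 9.60 in U937 scrambled arrays. In MV4-11, FANCE was at 10.55, 10.42 and 10.52 in CHD4 shRNA arrays, against 10.31, 10.05 and 10.23 in scrambled arrays. The CHD4 shRNA arrays lay above the scrambled arrays in both lines. FANCE rose by 0.28 ± 0.06 in the average (limma adjusted p = 0.0092), with changes of 0.25 ± 0.09 in U937 (limma adjusted p = 0.133) and 0.30 ± 0.09 in MV4-11 (limma adjusted p = 0.0566). With the replicate number as a block in MV4-11, where the numbers pair the arrays, the MV4-11 change passed (limma adjusted p = 0.0269, and 0.0215 with a block within each line). FANCL, the ubiquitin ligase of the complex, was at 8.77, 8.73 and 8.99 in U937 CHD4 shRNA arrays, against 9.16, 9.20 and 9.46 in U937 scrambled arrays. In MV4-11 FANCL was at 9.41, 9.51 and 8.83 in CHD4 shRNA arrays, against 9.33, 9.12 and 8.86 in scrambled arrays. Its groups were apart in U937 and overlapped in MV4-11, and neither change passed, at -0.44 and 0.15, but the U937 change passed with the block in MV4-11 (limma adjusted p = 0.0358, against 0.169 without it). FANCG had -0.20 in U937 and -0.23 in MV4-11, while FANCC had -0.06 and 0.03. The FANCG average of -0.22 did not pass in the fit without a block (limma adjusted p = 0.0594). It passed with the block in MV4-11 (limma adjusted p = 0.0343). Other settings in which it passed included the fits without the dimmest 25% of genes (0.0468) and without MV4-11 scrambled replicate 3 (0.0194).

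MGMT, the enzyme that reverses alkylation of guanine, was at 5.93, 5.87 and 5.97 in U937 CHD4 shRNA arrays, against 5.99, 5.53 and 5.68 in U937 scrambled arrays. In MV4-11, MGMT was at 6.21, 6.67 and 6.30 in CHD4 shRNA arrays, against 6.35, 7.08 and 6.39 in scrambled arrays. The groups overlapped in both lines, and the changes of 0.19 ± 0.19 in U937 and -0.21 ± 0.19 in MV4-11 did not pass. The signal of MGMT was low, with a mean of 6.16 over the 12 arrays (percentile 31.3 of all genes).

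**Figure D2:**
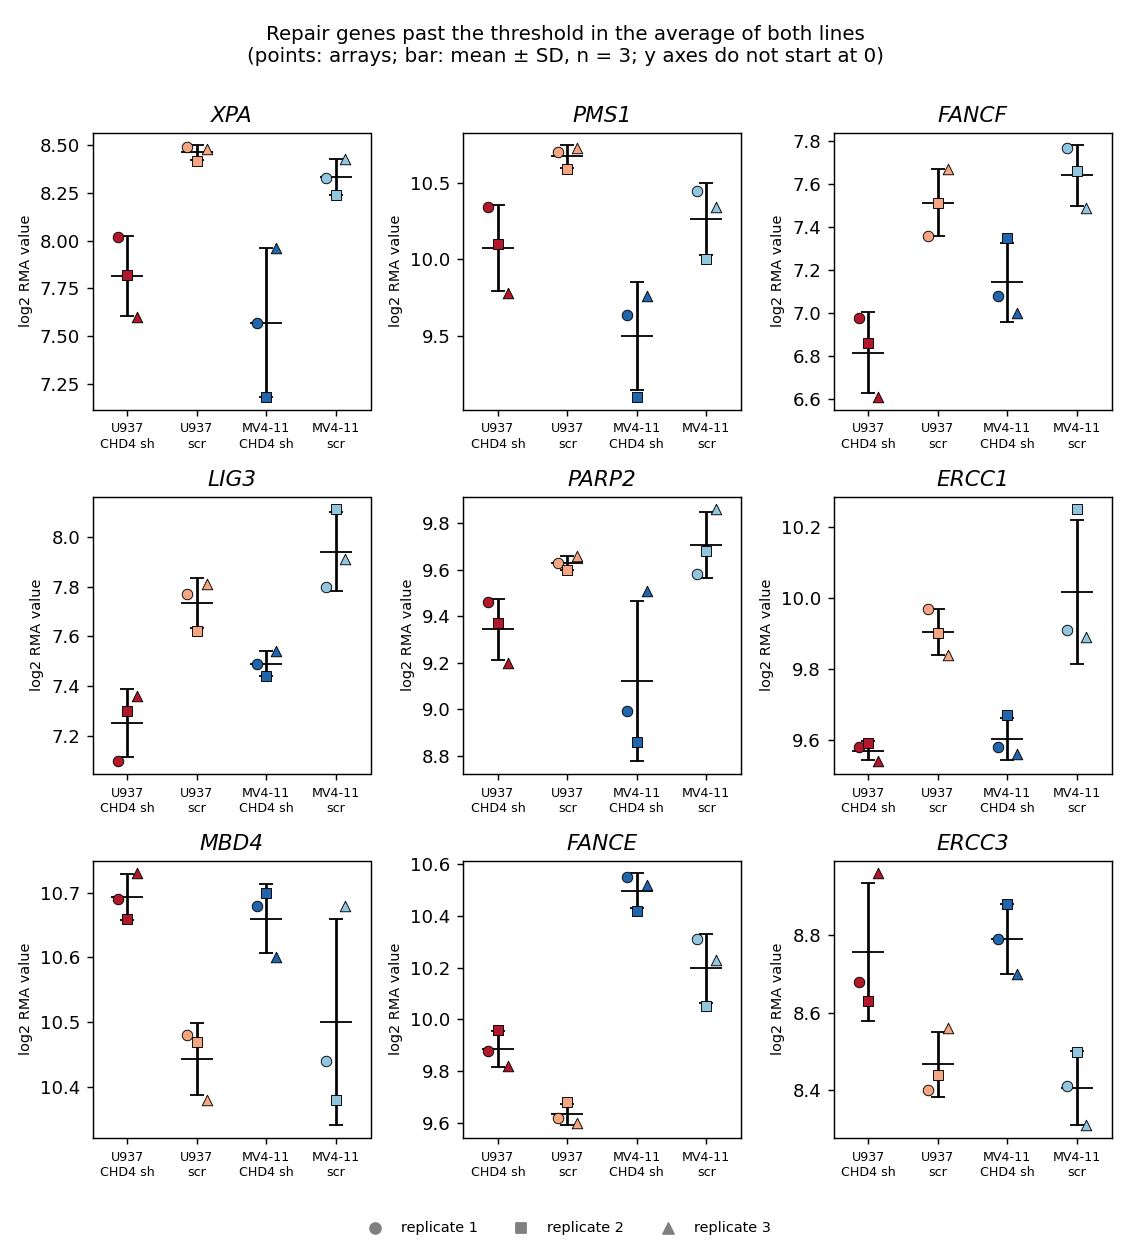
Log2 RMA value (y axis) of the 9 repair genes past the threshold in the average of both lines, on each of the 12 arrays, by group on the x axis with CHD4 shRNA left of scrambled, marker shapes for the replicate numbers and a bar at each group mean. For XPA, ERCC1, LIG3, PARP2, PMS1 and FANCF the CHD4 shRNA points lie below the scrambled points of the same line, and for ERCC3 and FANCE above them.

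A further 67 genes that work with the set were listed from the same pathways, of which 47 were measured. In U937, 4 fell and 1 rose (10.6% of the 47), in MV4-11 2 fell and 0 rose (4.3%), and in the average 9 fell and 2 rose (23.4%), beside the shares of all genes given above. With the block in MV4-11, 6 fell and 2 rose in U937, 7 fell and 1 rose in MV4-11, and 9 fell and 3 rose in the average. Calls over the 11963 genes were also more numerous in that fit. There 679 fell and 489 rose in U937, 929 fell and 974 rose in MV4-11, and 1516 fell and 1393 rose in the average. GTF2H5, the small TFIIH subunit that stabilises the complex, was at 9.33, 9.07 and 8.88 in U937 CHD4 shRNA arrays, against 10.10, 10.00 and 10.08 in U937 scrambled arrays. In MV4-11, GTF2H5 was at 9.55, 9.47 and 9.38 in CHD4 shRNA arrays, against 10.29, 10.01 and 10.08 in scrambled arrays. The groups stood well apart, and GTF2H5 fell by 0.97 ± 0.12 in U937 (limma adjusted p = 0.000641) and by 0.66 ± 0.12 in MV4-11 (limma adjusted p = 0.0053), to 51.2% and 63.3% of the scrambled level.

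TFIIH is the complex that opens DNA in nucleotide excision repair and at promoters, and its measured subunits changed in both directions. GTF2H4, its p52 subunit, fell in U937 by 0.47 (limma adjusted p = 0.0167) and had a change of -0.33 in MV4-11 (limma adjusted p = 0.0618, and 0.0342 with the block). CDK7, the kinase, fell in MV4-11 by 0.48 (limma adjusted p = 0.0458) and had -0.18 in U937 (limma adjusted p = 0.565). In the average GTF2H5, GTF2H4, CDK7 and the kinase assembly factor MNAT1 fell, by 0.81, 0.40, 0.33 and 0.24, while ERCC3 and cyclin H (CCNH) rose, by 0.34 and 0.23. With the block, MNAT1 also fell and CCNH also rose in MV4-11 (limma adjusted p = 0.0275 and 0.0338). The calls of CDK7, MNAT1 and CCNH in the average were lost in 7, 10 and 5 of the 12 fits without 1 array, with an adjusted p up to 0.0745, 0.118 and 0.0759. That of CDK7 in MV4-11 was lost in 10, and that of GTF2H4 in U937 in 4. ERCC2, GTF2H1 and GTF2H3 did not pass, at -0.11, 0.07 and -0.02.

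**Figure D3:**
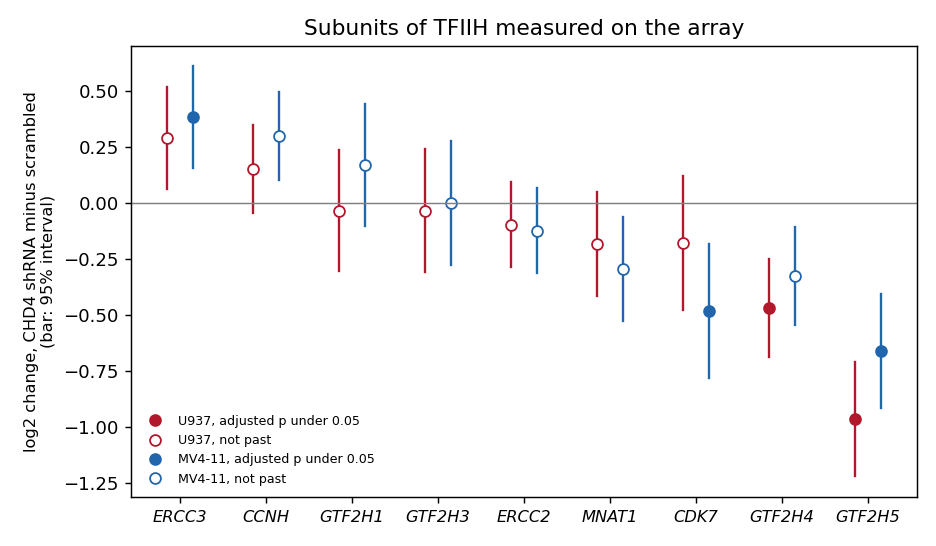
Log2 change (CHD4 shRNA minus scrambled) of the 9 measured TFIIH subunits in U937 and MV4-11, with 95% intervals. GTF2H5 lies lowest in both lines, at -0.97 in U937 and -0.66 in MV4-11, and ERCC3 and CCNH lie above 0.

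The remaining genes of that list that passed belong to other steps. LIG1, the replicative ligase that also seals long-patch repair, fell by 0.54 in U937 (limma adjusted p = 0.0115) and had -0.34 in MV4-11 (limma adjusted p = 0.0698, and 0.0466 with the block). FAAP24, a partner of the Fanconi complex, fell by 0.42 in U937 (limma adjusted p = 0.0458) and had -0.35 in MV4-11 (limma adjusted p = 0.0728). MPG, the glycosylase for alkylated purines, rose by 0.41 in U937 (limma adjusted p = 0.017) and had 0.19 in MV4-11 (limma adjusted p = 0.199). The polymerase delta subunit POLD2, the clamp loader subunit RFC4 and the helicase ASCC3 fell in the average but passed in neither line, by 0.46, 0.30 and 0.38. With the block, POLD2 passed in U937 and MV4-11 (limma adjusted p = 0.0139 and 0.0104), and so did ASCC3 (0.0303 and 0.0291). REV1, a polymerase of translesion synthesis, did not pass in the fit without a block. With the block it passed upward in U937 and in the average, at 0.31 and 0.21 (limma adjusted p = 0.0488 and 0.0337). Without 1 array, the calls of FAAP24 and MPG in U937 were lost in 8 and 4 of the 12 fits, and that of RFC4 in the average in 8.

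Whether the change differed between the lines was tested directly, as the change in MV4-11 minus that in U937. None of the 34 genes passed with limma, nor did any of the 11963 genes, and 2 of the 34 had an unadjusted p under 0.05 (546 of all genes). Those 2 were FANCL, with a difference of 0.59 (95% interval 0.06 to 1.12), and DDB2, with -0.43 (-0.85 to -0.01), both at an adjusted p of 0.937. The probe set of MLH3 with the U937 change of 0.67 gave -0.76 (unadjusted p = 0.0127 from limma, and 0.937 adjusted). The 95% intervals of the difference reached between 0.267 and 0.777 to either side of the estimate, depending on the gene. For the 3 genes past the threshold in both lines the difference was -0.11 (-0.62 to 0.39) for XPA, 0.03 (-0.29 to 0.35) for LIG3 and 0.20 (-0.20 to 0.60) for FANCF.

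In the scrambled arrays the lines themselves differed in 4 of the 34 repair genes (11.8%), against 5.48% of all genes: MGMT, DDB2 and FANCE were higher in MV4-11 (2.97% of all genes were) and OGG1 was lower (2.51%). MGMT, whose signal was low, was at 6.35, 7.08 and 6.39 in MV4-11 scrambled arrays, against 5.99, 5.53 and 5.68 in U937 scrambled arrays. The difference was 0.87 ± 0.19 (limma adjusted p = 0.0171). DDB2 was at 9.38, 9.73 and 9.25 in MV4-11, against 8.58, 8.71 and 8.99 in U937, a difference of 0.69 ± 0.14 (limma adjusted p = 0.0108). FANCE was at 10.31, 10.05 and 10.23 in MV4-11, against 9.62, 9.68 and 9.60 in U937, a difference of 0.56 ± 0.09 (limma adjusted p = 0.00312). For these 3 genes every MV4-11 scrambled array was above every U937 scrambled array. The scrambled arrays of the lines did not overlap for 9 of the 34 genes (26.5%), against 26.3% of all genes, with 6 higher in MV4-11 (11.9%) and 3 lower (14.4%). OGG1 was at 8.69, 8.47 and 8.09 in MV4-11, against 8.78, 9.03 and 9.12 in U937, a difference of -0.56 ± 0.14 (limma adjusted p = 0.0369). The mean of the probe sets of OGG1 did not pass, at -0.31 (limma adjusted p = 0.0549), and its call was lost in 7 of the 12 fits without 1 array. The call of MGMT was lost without U937 scrambled replicate 2 or 3 or MV4-11 scrambled replicate 2, and that of DDB2 without U937 scrambled replicate 1 or 2, with an adjusted p up to 0.0833 and 0.0629. MLH3 had a difference of 0.20 (limma adjusted p = 0.259) on the chosen probe set and 1.32 (limma adjusted p = 0.00131) on another. The chosen set is of the kind whose probes may match other transcripts, and the other is not of that kind. Both lines were grown alike per the labels, and other differences between them were not tested.

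**Figure D4:**
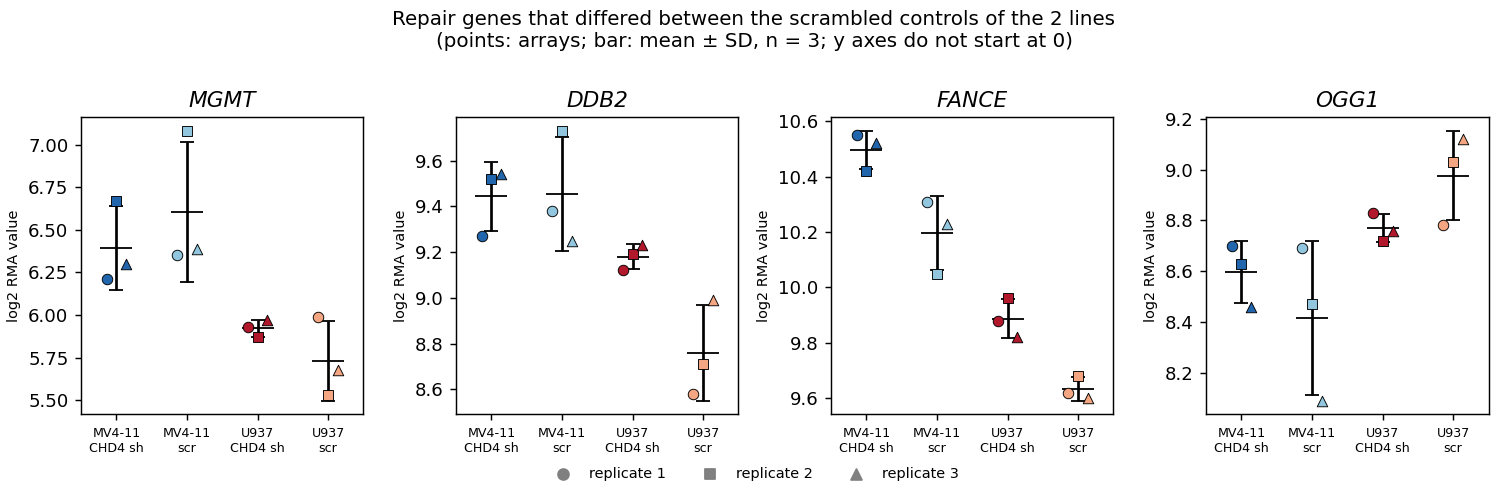
Log2 RMA value (y axis) of MGMT, DDB2, FANCE and OGG1 on each array, with the MV4-11 groups left of the U937 groups and CHD4 shRNA left of scrambled in each line, and a bar at each group mean. MGMT, DDB2 and FANCE lie higher in MV4-11 scrambled than in U937 scrambled arrays, and OGG1 lies lower.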

How the data were processed

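The values are log2 intensities as the authors deposited them, in 1 table rounded to 2 decimals. The submitters' processing notes name RMA, which corrects background, quantile-normalizes the arrays and summarises each probe set. Its version and the batch of arrays it was run on are not stated in these sources. Quantile normalization would hide a change shared by most genes, and background compresses the changes of dim genes. No detection calls were used, and the number of arrays limits the precision. Array medians lay between 6.96 and 7.01.

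Of 22277 probe sets, 62 were controls, 19064 carried a single gene symbol in GEO's annotation of the platform, 1043 carried several and 2108 were unlisted. The probe set with the highest mean represented a gene, giving 11963 genes. One group-means model was fitted to all 12 arrays with limma 3.58.1 in R 4.3.3 (lmFit, eBayes without trend, 8 residual and 4.66 prior degrees of freedom), and the procedure was tested on simulated data. Every adjusted p is from limma. The 36 genes, the list of 67 others and the tests were chosen with earlier results of these data known. By rule, genes past the threshold in any comparison, or best in their pathway where none passed, are given array by array, and the other genes of the set by their changes. FANCL, also given array by array, was chosen after its values were seen. Genes of the list of 67 are named where they passed in a line or in the average.

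Replicate numbers come from the titles. Deviations of same-numbered arrays correlated at 0.457, 0.478 and 0.494 in MV4-11, all above the 0.1 required for pairing. In U937 they were 0.0021, 0.351 and 0.336, of which 1 was below it. The model behind the reported values has no replicate term. A fit with the replicate number as a block in MV4-11, added after seeing the data, is given beside each result whose call it changes. Alternatives were other filters, normalizations, fits, probe sets, thresholds, replicate blocks and leaving out each array.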

Additional observations from a re-analysis of the deposited data

How the results depend on the processing

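Of 543 repeats of a called value of the repair genes under another setting, 458 kept the call, 85 lost it and 0 reversed. These tallies were partly fixed in advance. The thresholds of 0.01 and 0.1 reuse the same fit, so no call could reverse under them, and none could be lost under 0.1. Leaving out an array of the other line also left the estimate of a line unchanged. Counts below are of the 34 repair genes, from limma. In U937, with 3 in the report, 1 passed at an adjusted p under 0.01 and 6 under 0.1. Leaving out 1 array gave 1 to 4 in U937, with 1 without scrambled replicate 1, CHD4 shRNA replicate 2 or scrambled replicate 3. In these last 3 fits, 146, 141 and 182 of all genes rose and 182, 165 and 211 fell, against 320 and 441 in the report. In U937, 8 passed with a replicate block within each line and 6 with a block in MV4-11 alone, a setting chosen after seeing the data. Same-numbered U937 arrays correlated at 0.0021, below the 0.1 required for pairing, and at 0.35 and 0.34, above it. Whether the numbers pair U937 arrays is thus undecided. The block in MV4-11 alone gave 8 in MV4-11, 10 in the average and 4 between the scrambled lines, and it changed no call of the 34 genes other than those given in the report (ERCC1, FANCL and PMS1 in U937, FANCE in MV4-11 and FANCG in the average). In MV4-11, with 7 in the report, 0 passed under 0.01 (11 at an unadjusted p under 0.05, where 2933 of all genes were). When the fit held only the MV4-11 arrays 0 passed (9 at an unadjusted p under 0.05, where 2539 of all genes were). Leaving out 1 array gave 0 to 7 in MV4-11, with 0 without CHD4 shRNA replicate 1 (8 at an unadjusted p under 0.05). The count was 2 without scrambled replicate 2, 3 without CHD4 shRNA replicate 2 or scrambled replicate 3, and 4 without scrambled replicate 1. In the fit without scrambled replicate 1, 376 of all genes rose and 387 fell in MV4-11, against 566 and 561 in the report. The MV4-11 calls over all genes in the other fits without 1 array are not given here. The average, with 9, gave 8 to 12 without 1 array. Between the scrambled lines, with 4, 1 passed under 0.01 and 1 to 4 without 1 array. The count was 1 without U937 scrambled replicate 2 and 2 without U937 scrambled replicate 3 or MV4-11 scrambled replicate 2. Without U937 scrambled replicate 2, 178 of all genes were higher in MV4-11 and 147 lower, against 355 and 300 in the report. Over all genes the fit of MV4-11 arrays alone called 513, against 1127, and an adjusted p under 0.01 called 250, 376, 1182 and 267 in U937, MV4-11, the average and the scrambled lines. Under 0.1 these were 1146, 1827 and 1108 in U937, MV4-11 and the scrambled lines. The replicate block within each line called 1474 in U937, 2351 in MV4-11 and 1617 between the scrambled lines, and the block in MV4-11 alone 1168, 1903 and 1247. The difference of the changes called 4 and 1 genes, none of the set, without MV4-11 CHD4 shRNA replicates 2 and 3. The cause of these shifts was not tested.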
